A study of Mus musculus with 4 samples.

Results

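Imprinted genes are expressed mainly or only from the maternal or the paternal copy, and 37 of them were followed here in the kidney of newborn mice. The set was chosen by symbol from a list of 38 known imprinted genes. Of these, 37 matched a row of both single-cell matrices, which hold 31053 genes each, and Rian, a host RNA of small nucleolar RNAs, was not analysed here. No filter on measured values chose the members, but the list was made with earlier results of these data known. They cover 8 imprinted domains, in which several genes share a control region, and 9 genes treated as single: Plagl1, Grb10, Commd1, Impact, Zdbf2, Nnat, Gnas, Nap1l5 and Trappc9.

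Single-cell RNA was counted near its 3′ ends in droplets, in 2 libraries of whole newborn kidney, 1 for each genotype. The control library is labelled as newborn kidney of genotype Six2Cre, a Cre recombinase that is active in the Six2-positive nephron progenitors and so marks their descendants. The floxed library is labelled Six2CreTet2/3f/f, that is Six2Cre with floxed alleles of Tet2 and Tet3, so both libraries carried Cre. The number of animals and kidneys in each library and the floxed exons are not stated in the labels. With 1 library for each genotype there is no replicate check and no test, and every interval below covers counting error only. The 2 bisulfite samples of sorted progenitors in the series were not analysed here.

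An imprint is a difference in DNA methylation between the parental copies that is laid down in the germ line at CG dinucleotides of a control region. It keeps the chosen copy silent in the body, often by way of a long non-coding RNA such as Kcnq1ot1 or Airn. Tet2 and Tet3 oxidise methylated cytosine, the first step of active demethylation. Many imprinted genes act on growth: Igf2 drives it, Cdkn1c (the cell cycle inhibitor p57), Grb10 and Igf2r restrain it, and Cdkn1c is a known product of podocytes. The counts carry no information on the parental copy, so a level below is the sum of both. Whether each member is imprinted in these kidney cells was not tested.

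Barcodes with at least 1000 UMIs (molecule tags, each counted as 1 captured RNA), at least 500 genes and under 15% mitochondrial UMIs were kept, less the 8% with the highest doublet score. This left 19493 cells of the control and 14393 of the floxed library, with medians of 5993 and 4781 UMIs a cell. The libraries shared 174 barcodes of 25736 and 22543 deposited. Clustering without the members gave 29 clusters, of which 25 were named from marker lists as 13 cell classes and 4 stayed unnamed. Both progenitor-like clusters had Six2, Six3, Spock2 and Eya1 among their 10 leading genes, and the larger one also Cited1 and Crym. A further cluster led by these genes (271 control and 255 floxed cells) stayed unnamed, because its stroma score was too close. Markers of adrenal cortex, Schwann cells and mesothelium named no cluster. The classes the design turns on were progenitor-like cells (2643 control and 1594 floxed), committed nephron-like cells that descend from them (1814 and 1250) and stroma-like cells, which do not (6074 and 4586). In progenitor-like cells, Tet3 stood at 90.5 (control) and 41.9 CPM (floxed; CPM are UMIs of the gene per 1000000 UMIs of the class), and Tet2 at 27.7 and 21.7 CPM. In stroma-like cells, Tet3 stood at 51.9 and 39.9 CPM.

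The starts of 3 members that the results turn on are shown first, because the Tet enzymes act at CG dinucleotides. They were chosen after their values were seen. Zdbf2, which encodes a zinc finger protein, is expressed from the paternal copy and lies on chromosome 1 from 63200358 to 63314576. It has 2 RefSeq starts, 72.9 kb apart. Kcnq1ot1, the paternally expressed RNA that silences its neighbours, lies on chromosome 7 from 143213111 to 143296547, within the potassium channel gene Kcnq1. Meg3, a maternally expressed RNA, lies on chromosome 12 from 109540996 to 109571729. Each sequence runs from 250 bases before a start to 50 bases after it, 5′ to 3′ on the gene's strand in GRCm38.p6 (RefSeq), with CG dinucleotides in capitals.
Zdbf2, upstream start (chr1:63200108-63200407, plus strand): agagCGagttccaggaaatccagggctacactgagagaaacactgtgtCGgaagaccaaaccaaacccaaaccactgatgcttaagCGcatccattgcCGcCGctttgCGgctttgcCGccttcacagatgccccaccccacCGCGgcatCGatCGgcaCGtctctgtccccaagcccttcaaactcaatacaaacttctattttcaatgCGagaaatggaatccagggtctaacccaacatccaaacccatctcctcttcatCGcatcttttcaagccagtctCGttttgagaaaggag
Zdbf2, downstream start (chr1:63273019-63273318, plus strand): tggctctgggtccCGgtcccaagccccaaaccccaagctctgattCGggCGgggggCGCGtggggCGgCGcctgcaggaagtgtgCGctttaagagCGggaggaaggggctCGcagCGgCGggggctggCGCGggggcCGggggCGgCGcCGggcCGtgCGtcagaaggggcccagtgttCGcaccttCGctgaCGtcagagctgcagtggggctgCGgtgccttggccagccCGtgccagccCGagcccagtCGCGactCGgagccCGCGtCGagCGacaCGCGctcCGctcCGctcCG
Kcnq1ot1 (chr7:143296498-143296797, minus strand): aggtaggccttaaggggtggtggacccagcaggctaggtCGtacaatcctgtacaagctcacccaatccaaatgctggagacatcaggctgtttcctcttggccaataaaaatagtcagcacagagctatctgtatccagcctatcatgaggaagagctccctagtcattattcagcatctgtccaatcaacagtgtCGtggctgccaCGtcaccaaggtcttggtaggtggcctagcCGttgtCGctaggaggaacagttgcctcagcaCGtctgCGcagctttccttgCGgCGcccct
Meg3, first start (chr12:109540746-109541045, plus strand): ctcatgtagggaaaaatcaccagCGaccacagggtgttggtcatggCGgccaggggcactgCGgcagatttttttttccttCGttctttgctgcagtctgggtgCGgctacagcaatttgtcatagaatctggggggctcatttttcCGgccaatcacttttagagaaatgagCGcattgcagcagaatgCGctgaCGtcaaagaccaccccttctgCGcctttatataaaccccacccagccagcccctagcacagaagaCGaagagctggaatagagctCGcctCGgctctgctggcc

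The downstream Zdbf2 start held 38 CG dinucleotides, a count that 4.95% of the 32851 promoters of this length in the table reach. The upstream start held 15, the Kcnq1ot1 start 9 and the first Meg3 start 13. The median was 7 over all promoters and 15 over the 45 starts of 29 members. A second Meg3 start, not shown, held 1. The upstream Zdbf2 start also held 3 copies of TGCCGC, the core of the motif read by Zfp57, a protein that keeps imprints, searched on both strands. The first Meg3 start held 1 copy and the other starts shown held none. At least 1 copy is held by 11.6% of all promoters and by 13 of the 45 member starts (28.9%). Counting near the 3′ end does not tell which Zdbf2 start a molecule came from.

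The first question was in which cells of the newborn kidney the members are expressed. Of the 37 members, 30 reached a mean of both libraries of 10 CPM in at least 1 class. The other 7, Ascl2, Slc22a18, Rtl1, Mirg, Magel2, Mkrn3 and Nap1l5, stayed below it in every class. Most members were present in many classes, and the plot of levels by class shows a few with a marked peak.

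**Figure D1:**
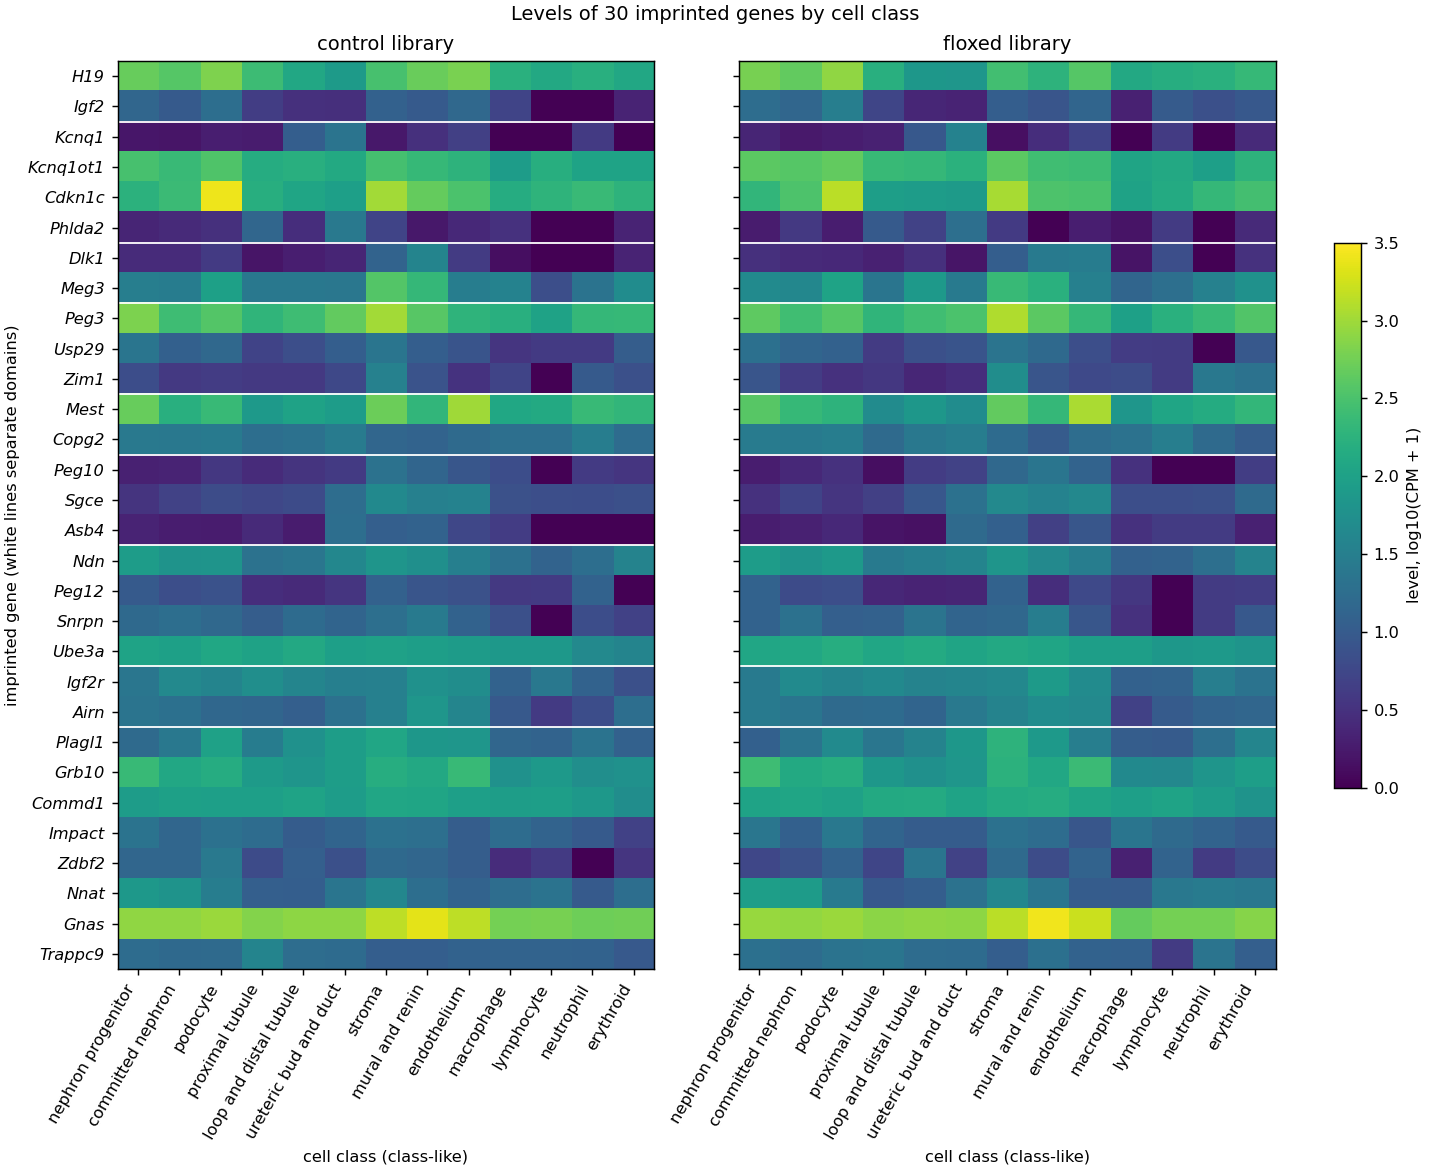
Level of the 30 imprinted genes that reached 10 CPM, as log10(CPM + 1), by cell class in the control library (left) and the floxed library (right), 1 library each, with white lines between domains. Cdkn1c was highest in podocyte-like cells, Mest in endothelial-like cells, Gnas in mural and renin-like cells, and Meg3, Peg3 and Plagl1 in stroma-like cells in both libraries.

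Cdkn1c had a marked peak in podocyte-like cells. It stood at 2564 CPM in control podocyte-like cells and 1353 CPM in floxed ones, while stroma-like cells had 1034 and 1101 CPM. Among the stroma-like clusters, the one led by Nts, Tagln and Cxcl14 held 3255 and 3928 CPM, the others 426.5 to 1031 CPM in the control. Cdkn1c in progenitor-like cells, at 176.5 and 201 CPM, was no higher than in neutrophil-like cells, at 235 and 212 CPM. Neutrophils are taken here as cells that should lack most of these RNAs, so that level is read as free RNA in the droplets (median depth 2283 and 1703 UMIs, against 7648 and 6202 in progenitor-like cells).

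Read against that reference, 10 of the 22 members at the minimum in progenitor-like cells had intervals above the neutrophil-like ones in both libraries. They were H19, Kcnq1ot1, Peg3, Usp29, Mest, Ndn, Ube3a, Grb10, Nnat and Gnas. In committed nephron-like cells it was 7 of 21, and in stroma-like cells 17 of 28. The neutrophil-like intervals are wide because this class held 116 and 135 cells.

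The non-coding RNA H19 was highest in podocyte-like cells, at 663 and 839.9 CPM, followed in the control by endothelial-like cells at 618 CPM and in the floxed library by progenitor-like cells at 611 CPM. Mest, a member of the hydrolase fold family, stood at 1003 and 1123 CPM in endothelial-like cells, against 485.9 and 390 CPM in progenitor-like cells. Grb10, an adaptor that damps insulin and IGF signalling, stood at 230 and 245 CPM in endothelial-like cells and at 227 and 262 CPM in progenitor-like cells. These classes do not differ beyond their intervals in the control or in the floxed library.

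Stroma-like cells held the most Peg3, a zinc finger gene, at 1044 and 1219 CPM. They also held the most Meg3 (364.5 and 230 CPM), Plagl1 (116 and 180.5 CPM), Zim1 (33.2 and 51.5 CPM) and Sgce (44.5 and 43.8 CPM). Plagl1 encodes a zinc finger transcription factor, and Sgce a sarcoglycan. Mural and renin-like cells held the most Gnas, at 2274 and 2696 CPM. Gnas encodes the stimulatory G protein subunit and several other products, which these counts sum.

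Cells of the ureteric bud and its collecting ducts (duct-like below) were the class with most Kcnq1, at 21.4 and 34.1 CPM, and most Phlda2, at 24.96 and 18.2 CPM. In no other class did Kcnq1 reach a mean of 10 CPM. Nnat, a small membrane protein gene, was highest in progenitor-like cells, at 72.9 and 90.3 CPM, and in committed nephron-like cells, at 61.1 and 82.0 CPM. Trappc9, a trafficking gene, was highest in proximal tubule-like cells in both libraries, at 37.5 and 21.7 CPM. In the floxed library neutrophil-like cells came next, at 21.2 CPM, with overlapping intervals. In no class was Trappc9 above the neutrophil-like level in both libraries. In all, 20 of the 30 members that reached the minimum in some class had the same highest class in both libraries.

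Levels of Igf2 and Snrpn are uncertain. Igf2, the growth factor, reached only 13.4 and 16.6 CPM in progenitor-like cells and 17.5 and 30.5 CPM in podocyte-like cells, its highest class. The files also list Gm49394 beside Igf2 and Snurf beside Snrpn, both with 0 UMIs in all kept cells, and a read that matches 2 overlapping gene models is not counted. Kcnq1ot1 with Kcnq1, Airn with Igf2r, Meg3 with Rtl1 and Mest with Copg2 also overlap in the annotation, and no source used here gives the strand setting of the counting.

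The second question was whether the members differed between genotypes in the lineage where Cre acts. A member was called where the 95% interval of the ratio of its 2 levels lay wholly beyond 1.5-fold in either direction. In progenitor-like cells 0 of 22 members were called, where 3.28% of all 8105 genes at the same minimum were. Of these 22, 16 were higher and 6 lower in the floxed library, with a median log2 ratio of 0.19 against 0.04 over all genes.

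**Figure D2:**
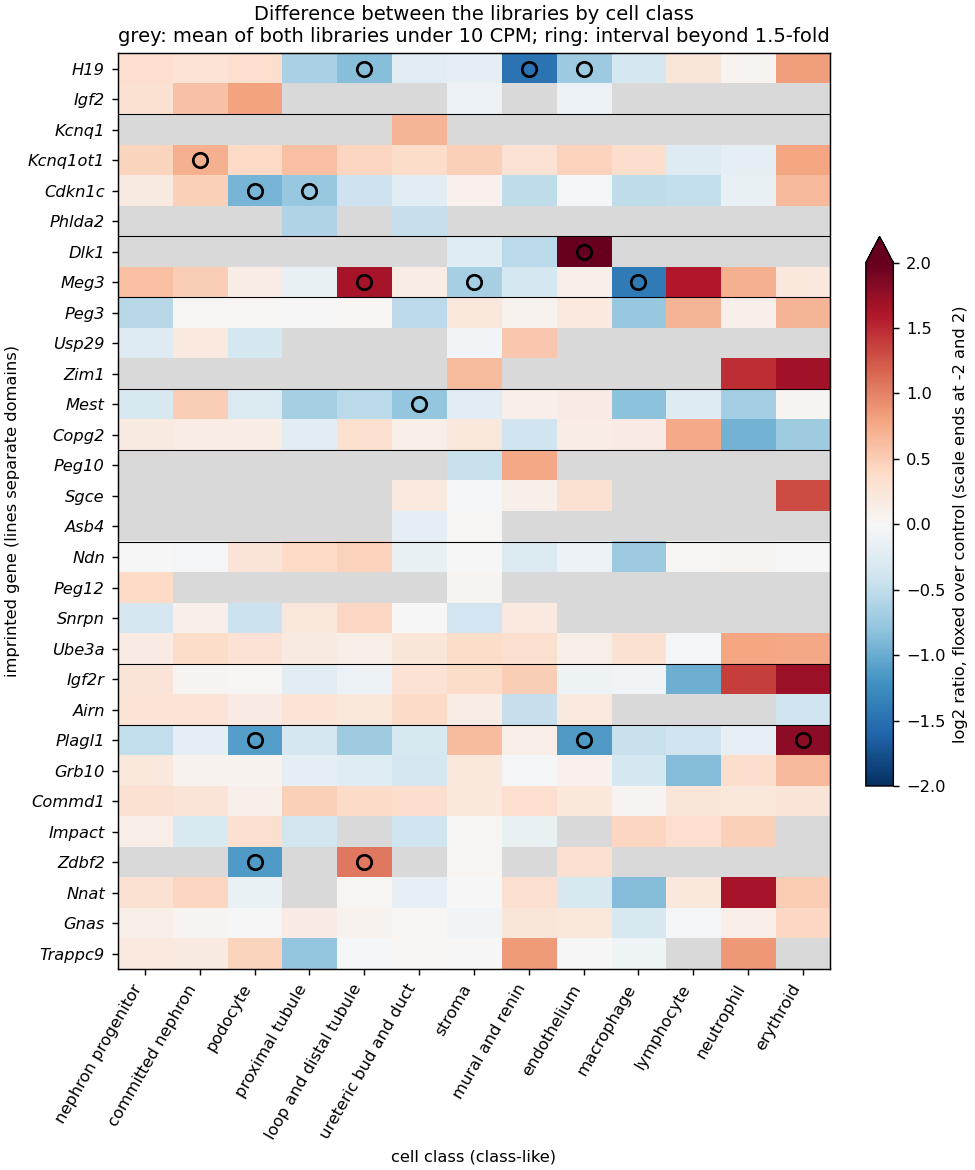
Log2 ratio of the floxed over the control level for 30 imprinted genes by cell class, with red higher and blue lower in the floxed library, grey where the mean of both libraries was under 10 CPM and rings where the interval lay beyond 1.5-fold. Progenitor-like cells have no ring, committed nephron-like and stroma-like cells have 1 each, and Meg3, Plagl1 and Zdbf2 have rings of both colours.

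The largest differences in progenitor-like cells were Meg3 above and Peg3 below. Meg3 stood at 30.9 (control) and 46.8 CPM (floxed), 1.52-fold higher (1.35 to 1.70), levels not above the neutrophil-like 20.3 and 33.3 CPM beyond their intervals. Peg3 stood at 634 and 430 CPM, 1.47-fold lower (1.43 to 1.52), and was lower in both progenitor-like clusters. Its neighbour Usp29, of the deubiquitinase family, stood at 22.2 and 18.6 CPM. Plagl1, at 15.1 and 10.7 CPM, was 1.41-fold lower (1.15 to 1.75), but its log2 ratio of -0.50 became 0.84 when each library was clustered on its own. H19 and Igf2 were both somewhat higher, 1.26-fold (1.22 to 1.30) and 1.24-fold (1.03 to 1.49).

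Zdbf2 fell just short of the level minimum in these cells, with a mean of both libraries under 10 CPM, and had a larger ratio than any member above it. It stood at 13.3 CPM in control progenitor-like cells (339 UMIs in 256 cells) and at 4.57 CPM in floxed ones (50 UMIs in 46 cells). The floxed level was thus 2.90-fold lower, with an interval of 2.15 to 3.98. Neutrophil-like cells had 0 and 3.02 CPM. Here and in every other class, the Zdbf2 intervals were not above the neutrophil-like ones in both libraries, a check that a low level in 1 library is enough to fail. Zdbf2 was lower in both progenitor-like clusters, at 14.4 and 5.44 CPM in one and 12.6 and 4.31 CPM in the other. Without a level minimum, Zdbf2 was the only member called in progenitor-like cells, where 3.51% of all genes with at least 1 UMI in each library were called. The interval stayed beyond 1.5-fold in 12 of 12 alternative filters, clusterings and scalings.

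The same direction was seen in 2 other classes of the nephron lineage. In committed nephron-like cells Zdbf2 stood at 13.3 and 6.50 CPM, 2.05-fold lower (1.59 to 2.66) and lower in both clusters, again with a mean just under 10 CPM. Without a level minimum it was called there too, where 2.79% of all genes were, but its interval stayed beyond 1.5-fold in only 5 of 12 alternatives (log2 ratio from -1.31 to -0.82). In podocyte-like cells it stood at 24.9 and 11.4 CPM, 2.18-fold lower (1.53 to 3.20), with an interval beyond 1.5-fold in 7 of 13 alternatives. In stroma-like cells it stood at 14.9 and 15.3 CPM, a ratio of 1.02 (0.90 to 1.17), but their 5 clusters differed. It was 1.58-fold higher (1.27 to 1.963) in the one led by Col14a1, at 14.3 and 22.6 CPM, and had a ratio of 0.57 (0.42 to 0.76) in the one led by Fibin, at 20.8 and 11.8 CPM. In duct-like cells, also outside the Six2 lineage, it stood at 6.13 and 3.92 CPM and was lower in both clusters. Of 22 members at the minimum in podocyte-like and stroma-like cells, 4 had ratios that differed by more than 1.5-fold with their whole interval (Cdkn1c, Meg3, Plagl1 and Zdbf2), where 1.31% of all genes did. The podocyte-like Zdbf2 ratio lay below the stroma-like one by 1.16 on the log2 scale (0.62 to 1.71). Zdbf2 was not lower throughout the lineage. In cells of the loop of Henle and distal tubule (loop and distal-like below) it was higher, at 10.5 and 21.7 CPM, 2.07-fold (1.60 to 2.70), and in proximal tubule-like cells it stood at 5.38 and 4.44 CPM with an interval that included no difference.

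**Figure D3:**
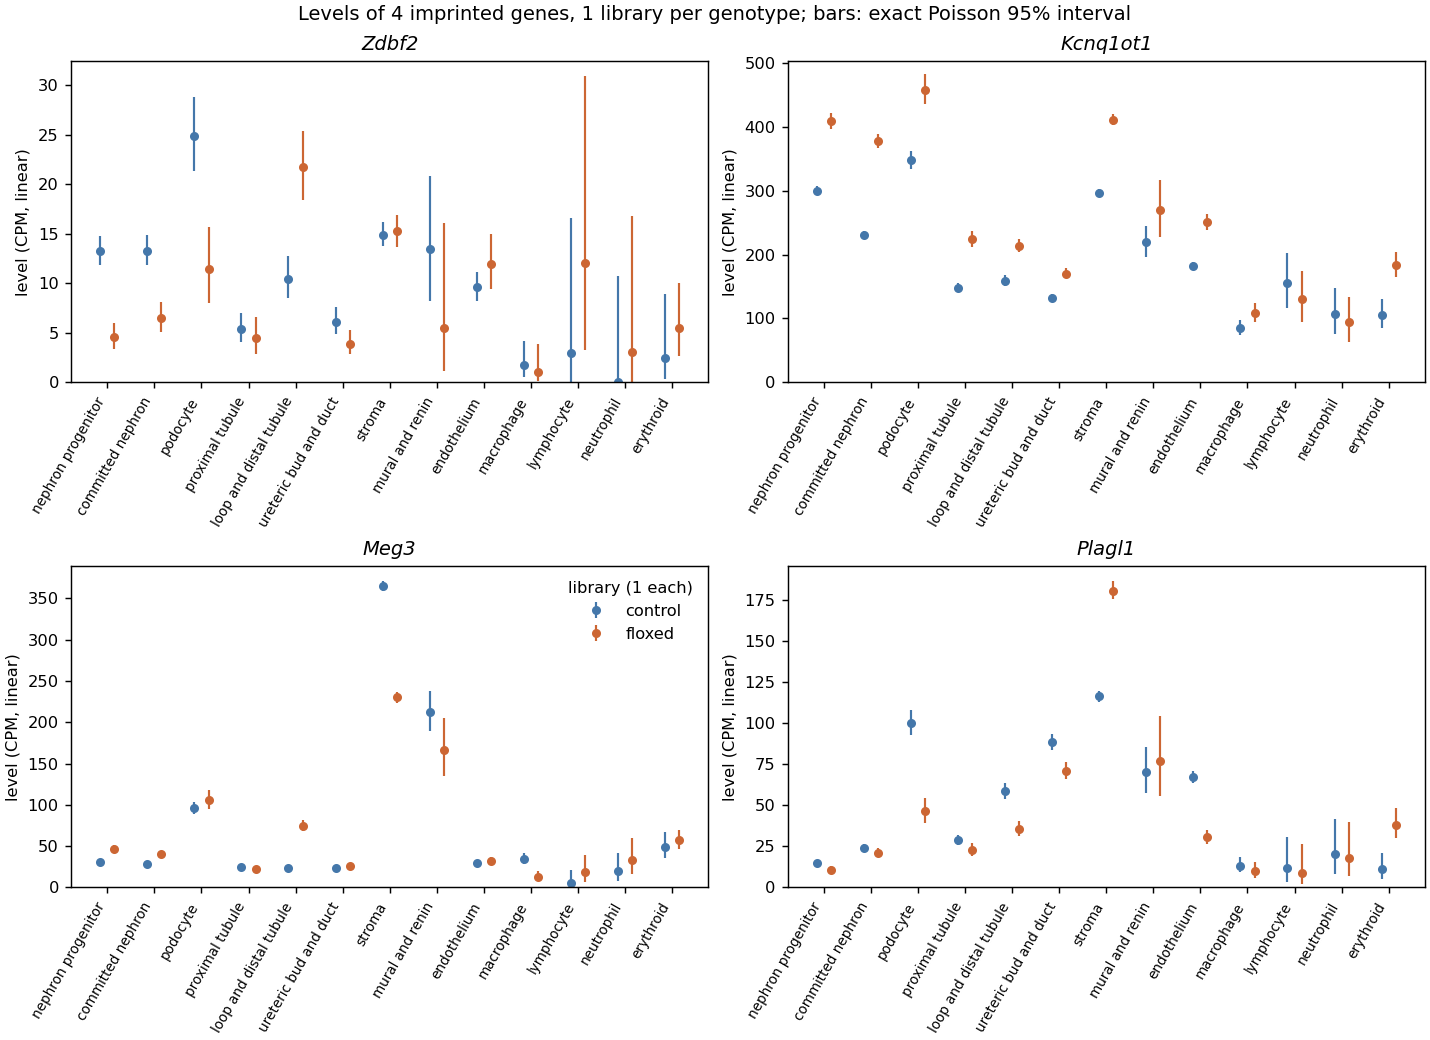
Level in CPM (linear axis) of Zdbf2, Kcnq1ot1, Meg3 and Plagl1 in each cell class, 1 control library (blue) and 1 floxed library (orange), with exact Poisson 95% intervals that cover counting error only. Zdbf2 was lower in floxed progenitor-like, committed nephron-like and podocyte-like cells and had close pooled levels in stroma-like cells, whose clusters differed in opposite directions, and Kcnq1ot1 was higher in the floxed library in 11 of 13 classes.

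In committed nephron-like cells 1 of 21 members was called, where 2.30% of all genes were. It was Kcnq1ot1, at 231 (control) and 377 CPM (floxed), 1.63-fold higher (1.57 to 1.70) and higher in both clusters. Kcnq1ot1 was also above the control in progenitor-like cells (300 and 409 CPM, 1.36-fold) and in stroma-like cells (297 and 411.5 CPM, 1.39-fold), which lie outside the Six2 lineage. It was higher in the floxed library in 11 of 13 classes and in 5 of 5 stroma-like clusters. This breadth was not particular to Kcnq1ot1. Commd1 was higher in 13 of 13 classes and Ube3a in 12 of 13, both in 5 of 5 stroma-like clusters. The other members at the minimum in all 13 classes were higher in 3 (Plagl1) to 10 (Peg3 and Gnas). Of the 21 members, 18 were higher and 3 lower, with a median log2 ratio of 0.20 against 0.00 over all genes.

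The genes that Kcnq1ot1 silences on its own chromosome copy did not all lie below the control. Cdkn1c stood at 239 and 331 CPM in committed nephron-like cells, 1.38-fold higher (1.33 to 1.44). Kcnq1, Phlda2, Ascl2 and Slc22a18 were under the level minimum there. Mest (158 and 221 CPM) and Nnat were also above the control in these cells, by 1.40-fold and 1.34-fold, though the log2 ratio of Mest was -0.02 at the lower clustering resolution.

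In stroma-like cells 1 of 28 members was called, where 3.37% of all genes were. It was Meg3, at 364.5 (control) and 230 CPM (floxed), 1.58-fold lower (1.53 to 1.63) and lower in 5 of 5 stroma-like clusters. Zim1 and Plagl1 lay on the other side, 1.55-fold higher (1.43 to 1.68) and 1.55-fold higher (1.49 to 1.62), with intervals that reached below 1.5-fold. Of the 28 members, 16 were higher and 12 lower, with a median log2 ratio of 0.02 against 0.00 over all genes.

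Over all kept cells, which need no clustering but mix cell types, 0 of 23 members were called, where 4.07% of all genes were. The ratios in progenitor-like and stroma-like cells were then set against each other. Of 22 members compared, 3 differed by more than 1.5-fold with their whole interval, where 0.496% of all genes did. Meg3 was higher in progenitor-like and lower in stroma-like cells, a difference of 1.27 on the log2 scale (1.10 to 1.43), with a progenitor-like level not above the neutrophil-like one. Peg3 (-0.78, from -0.84 to -0.73) and Plagl1 (-1.14, from -1.44 to -0.83) went the other way, lower in progenitor-like and higher in stroma-like cells.

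Across the 13 classes, the members gave 16 calls among 267 pairs of member and class at the minimum (5.99%, against 2.88% over all genes), 5 of them higher and 11 lower in the floxed library, among 8 members and 10 classes. Only 4 of these 16 calls stood in a class where the member was above the neutrophil-like level in both libraries. They were Kcnq1ot1 in committed nephron-like, Meg3 in stroma-like, H19 in endothelial-like and Cdkn1c in podocyte-like cells. A called member is low in 1 library and can fail this check for that reason, so it does not settle whether the other 12 reflect free RNA. In endothelial-like cells 3 of 21 members were called, where 2.85% of all genes were. Dlk1, counted here and among the 16 calls, reached the minimum only through the floxed library. H19 stood there at 618 and 375 CPM, 1.65-fold lower (1.57 to 1.72), and Plagl1 at 67.0 and 30.5 CPM, 2.20-fold lower (1.88 to 2.57). Dlk1, a Notch ligand homologue, stood at 3.11 and 28.1 CPM, 9.05-fold higher (6.64 to 12.5), and 72 of its 176 floxed UMIs came from 1 cell. Without the endothelial-like cluster led by Gja4, an alternative added after seeing the data, the Dlk1 ratio was 1.81 (1.07 to 3.02) and no longer called.

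Podocyte-like cells had 3 of 22 members called, all lower, where 2.56% of all genes were called: Cdkn1c, Plagl1 and Zdbf2. Cdkn1c stood at 2564 and 1353 CPM, 1.90-fold lower (1.83 to 1.959), and Plagl1 at 100.1 and 46.6 CPM, 2.15-fold lower (1.80 to 2.58). The class was made of different cells in the libraries. One of its clusters held 320 control and 14 floxed cells and had a Cdkn1c level of 7154 and 4902 CPM. Without that cluster, an alternative added after seeing the data, Cdkn1c stood at 1669 and 1306 CPM, 1.28-fold lower (1.23 to 1.32), and was no longer called. Plagl1 stood there at 82.8 and 45.3 CPM, 1.83-fold lower (1.52 to 2.21), and Zdbf2 at 22.8 and 11.6 CPM, 1.97-fold lower (1.36 to 2.91). The Plagl1 interval there lay beyond 1.5-fold and the Zdbf2 interval did not.

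Loop and distal-like cells had 3 of 19 members called, where 3.94% of all genes were. Meg3 stood at 23.8 and 74.9 CPM, 3.14-fold higher (2.68 to 3.69), the opposite of stroma-like cells. Zdbf2 was higher there, as given above, and H19 stood at 125.5 and 69.3 CPM, 1.81-fold lower (1.63 to 2.01). The H19 call held in 5 of 12 alternatives, and its log2 ratio went from -0.86 to -0.34 without doublet removal. This H19 level was no higher than the 160 and 166 CPM of neutrophil-like cells.

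The remaining classes had at most 1 call each. H19 was 2.79-fold lower in mural and renin-like cells, at 507 and 182 CPM, 1 of 23 members where 1.23% of all genes were called. Mest was 1.70-fold lower in duct-like cells, at 83.7 and 49.2 CPM, 1 of 23 members against 3.90% of all genes. Cdkn1c was 1.68-fold lower in proximal tubule-like cells, at 154 and 91.4 CPM, 1 of 19 members against 4.31%. The Cdkn1c call held in 6 of 12 alternatives, and its log2 ratio of -0.75 became -0.17 with each library clustered on its own. The Mest call held in 8 of 12. The Mest and Cdkn1c levels there were below those of neutrophil-like cells.

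Meg3 was 2.66-fold lower in macrophage-like cells, from 97 control and 24 floxed UMIs (1.69 to 4.36), 1 of 17 members against 3.73% of all genes. Plagl1 was 3.45-fold higher in erythroid-like cells, at 11.1 and 38.2 CPM from 9 and 70 UMIs, 1 of 18 members against 1.85%. With a looser cell filter its log2 ratio there was -0.29, of the opposite sign, and the call held in 5 of 12 alternatives. In that class the median log2 ratio of all genes was itself 0.27, and in neutrophil-like cells it was -0.11. In the other 11 classes it lay within 0.1 of 0. Lymphocyte-like cells had 0 of 16 members called against 2.20% of all genes, and neutrophil-like cells 0 of 18 against 1.55%.

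The third question was whether members of one imprinted domain move together. Levels were first correlated over the 12 classes with at least 100 cells in each library, which share a library and differ in depth. The 22 pairs within a domain had a median Pearson r of log2(CPM + 1) of 0.52 in the control and 0.57 in the floxed library. The 413 pairs from different domains had medians of 0.37 and 0.29. The within-domain r was above the upper quartile of the other pairs for 10 of 22 pairs in the control and 13 of 22 in the floxed library.

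Some domains had the same cell types in common and others did not. Peg10 and Sgce, neighbours that share a control region, had r of 0.91 and 0.86, and H19 and Igf2 had 0.85 and 0.95. Peg3 and Usp29 had 0.84 and 0.65. Mest and Copg2, a coatomer gene whose 3′ end overlaps Mest, had -0.25 and -0.18. In the Kcnq1ot1 domain, Cdkn1c went with Kcnq1ot1 (0.69 and 0.63) but not with Kcnq1 (-0.32 and -0.42); the first was highest in podocyte-like and the last in duct-like cells.

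**Figure D4:**
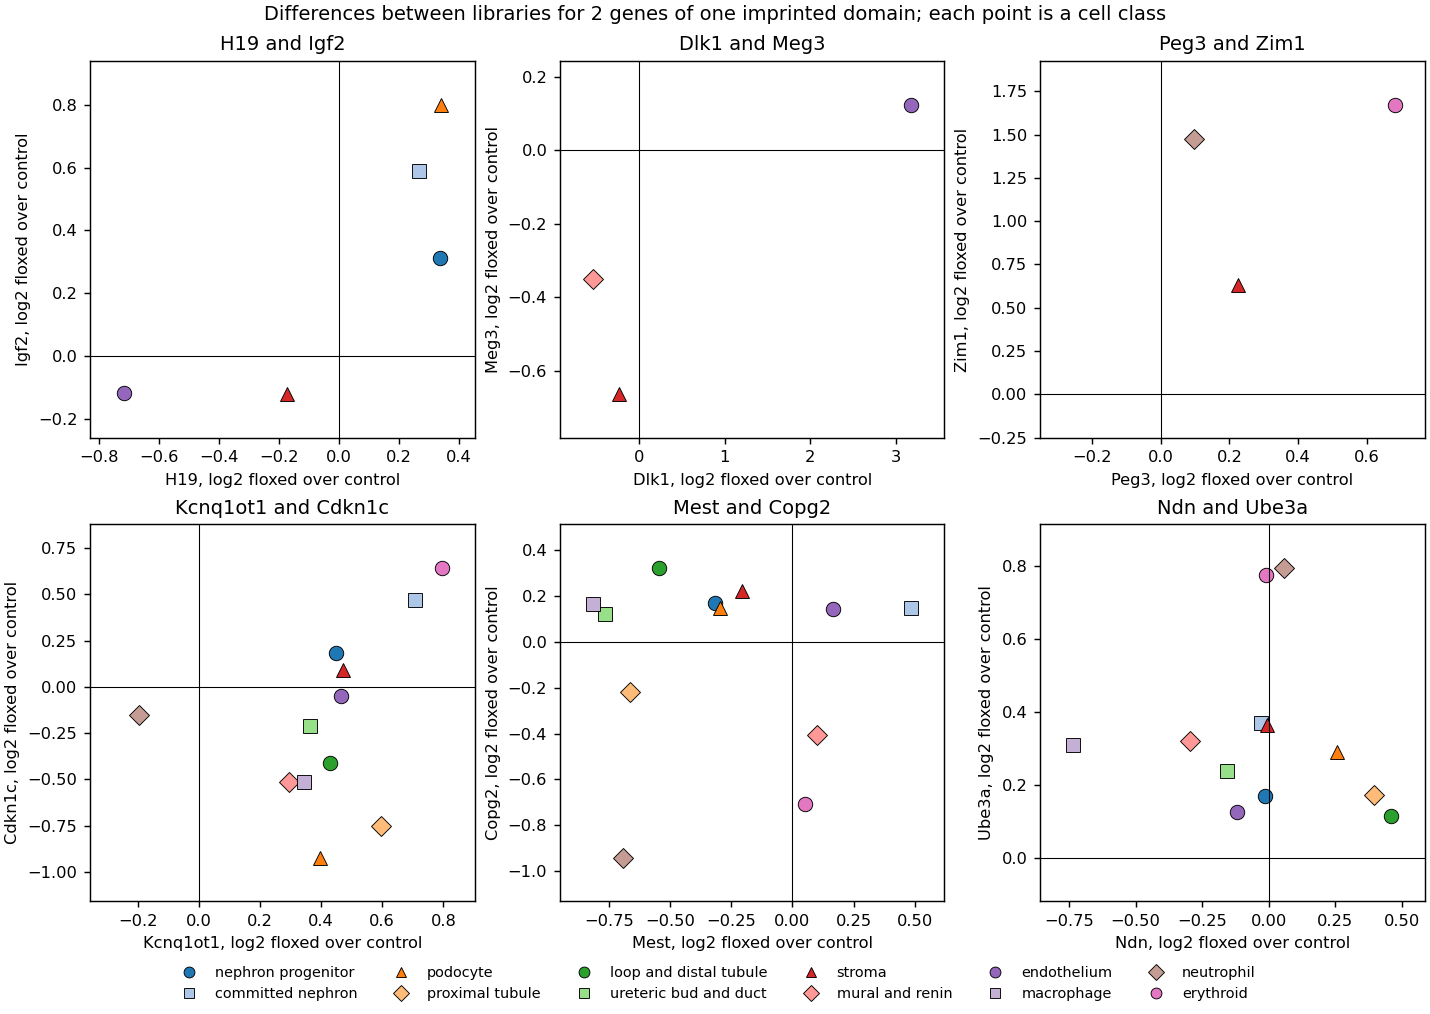
Log2 ratio of the floxed over the control level for pairs of genes of one imprinted domain, each point a cell class. Classes had at least 100 cells in each library, and both genes reached a mean of 10 CPM in them. H19 and Igf2 lay on the same side of 0 in 5 of 5 classes, Kcnq1ot1 and Cdkn1c in 5 of 12, Mest and Copg2 in 4 of 12, and Ndn and Ube3a in 4 of 12.

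Differences between the libraries were then compared within domains, over the same 12 classes, which leave out lymphocyte-like cells. Over all pairs of one domain and the classes where both reached the minimum, the log2 ratios had the same sign in 48 of 97 combinations (49.5%), against 1351 of 2453 (55.1%) for pairs from different domains. These combinations share genes and libraries. H19 is expressed from the maternal and Igf2 from the paternal copy. Their log2 ratios had the same sign in 5 of 5 classes where both reached the minimum. In endothelial-like cells, however, H19 was lower in 3 of 3 clusters and Igf2 higher in 2 of 3. In podocyte-like cells H19 stood at 663 and 839.9 CPM and Igf2 at 17.5 and 30.5 CPM, ratios of 1.27 and 1.74. Dlk1 and Meg3, also expressed from opposite copies, were both lower in floxed stroma-like and in floxed mural and renin-like cells. In endothelial-like cells Dlk1 reached the minimum only through the floxed library, and Meg3 was higher in 2 of 3 clusters. Peg3 and Zim1, paternal and maternal, were both higher in floxed stroma-like cells. Of the other 2 classes where both reached the minimum, neutrophil-like cells are themselves the free RNA reference. In erythroid-like cells neither gene had intervals above the neutrophil-like ones in both libraries.

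In other pairs the signs were mixed. Kcnq1ot1 and Cdkn1c had the same sign in 5 of 12 classes, and in podocyte-like cells Kcnq1ot1 was 1.32-fold higher while Cdkn1c was lower. Mest and Copg2 had the same sign in 4 of 12 classes, Igf2r and Airn in 5 of 10, Ndn and Ube3a in 4 of 12, and Peg3 and Usp29 in 3 of 5. No domain had 2 members called the same way in 1 class.

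A list of 34 further imprinted genes or neighbours in the same domains had 0 of 13 members called in progenitor-like cells, where 3.28% of all genes were. It had 0 of 17 in committed nephron-like cells (2.30% of all genes) and 0 of 14 in stroma-like cells (3.37%). Of 27 genes that set, keep or read imprints, such as the methyltransferase Dnmt1 and Zfp57, Tet3 was the only one called in progenitor-like (1 of 23) and in committed nephron-like cells (1 of 23), and 0 of 23 were called in stroma-like cells. In committed nephron-like cells Tet3 stood at 78.3 and 39.6 CPM, 1.98-fold lower (1.79 to 2.19). Both lists had calls in other classes. Of 17 further imprinted genes in podocyte-like cells, 1 was called higher and 1 lower, where 2.56% of all genes were called. Of 23 imprint control genes in loop and distal-like cells, 2 were called higher and 1 lower, where 3.94% of all genes were called.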

How the data were processed

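The deposited matrices hold raw UMI counts per gene and barcode, made by the authors with Cell Ranger 6.0.2 on mm10 per the submitters' processing notes (6.0.1 per the file headers). The labels' protocols name 10000 cells loaded, and the files hold 25736 and 22543 barcodes. From these counts, levels were computed as UMIs summed over the cells of a class, per 1000000 UMIs of that class (CPM). Scrublet's automatic threshold called 0 doublets, so a fixed 8% share, those scoring highest in each library, was taken out. Cells were clustered jointly with scanpy 1.11.5 (2000 variable genes without the members, 30 principal components, 15 neighbours, Leiden resolution 1). Clusters were named from marker lists, with 2 naming checks added after a look at the clusters.

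Ratios of floxed over control CPM carry exact conditional binomial 95% intervals (scipy 1.17.1), and levels exact Poisson intervals. Both cover counting error only. Differences between the log2 ratios of 2 classes have normal intervals from the counts. A member was called where it reached a mean of both libraries of 10 CPM and its interval lay wholly beyond 1.5-fold. The interval code was tested on simulated data. Values are written out for only some of the members with that level in progenitor-like, committed nephron-like or stroma-like cells, or in their highest class. The others are given by counts or in the plots. The members and gene lists were chosen with earlier results of these data known. Alternatives covered cell filters, doublet removal, clustering, scaling, the level minimum and the fold.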

Additional observations from a re-analysis of the deposited data

Results flagged for a closer look

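For 3 members, the intervals lay beyond 1.5-fold in opposite directions in different cell classes. With 1 library for each genotype, none of these differences between classes was tested across samples.

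The log2 ratio of Meg3 was 1.65 in loop and distal-like cells, -0.66 in stroma-like cells and -1.41 in macrophage-like cells. That of Plagl1 was 1.78 in erythroid-like cells, -1.10 in podocyte-like cells and -1.14 in endothelial-like cells. That of Zdbf2 was 1.05 in loop and distal-like cells and -1.13 in podocyte-like cells.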

How the results depend on the processing

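No paired analysis was possible because each genotype has 1 library. The log2 ratio of Plagl1 in erythroid-like cells became -0.29 with a looser cell filter. The number of members called in committed nephron-like cells became 2 with the 10000 deepest barcodes, without doublet removal, with 16% of barcodes removed, with members among the variable genes, with each library clustered on its own, with a total lacking mitochondrial, ribosomal and haemoglobin genes, and without a level minimum, and it became 3 at a lower fold threshold. In progenitor-like cells it became 2 with separate clustering (Meg3 and Plagl1), 1 with that reduced total or without a level minimum (Zdbf2 in both) and 3 at a lower fold threshold. In stroma-like cells it became 4 with separate clustering or at a lower fold threshold, and 2 with the mean of single-cell CPM. Over all kept cells it became 1 with the 10000 deepest barcodes (Zim1) or without a level minimum (Rtl1), and 2 at a lower fold threshold. A lower fold threshold can only add calls. Without a level minimum, 3.51% of all genes were called in progenitor-like and 2.79% in committed nephron-like cells. The share of all genes called under the other settings is not given here, so these counts are no result about the members. With a minimum of 50 CPM the stroma-like median log2 ratio was 0.15, and 1 member differed between progenitor-like and stroma-like cells. The median r within domains became 0.62 in the control with the looser filter and 0.70 in the floxed library with the 10000 deepest barcodes. The cause of these shifts was not tested. Kcnq1ot1 in committed nephron-like cells and Zdbf2 in progenitor-like cells stayed beyond 1.5-fold in 12 of 12 alternatives, Meg3 in stroma-like cells in 10 of 12 and Zdbf2 in committed nephron-like cells in 5 of 12. Low counts limit Dlk1, Rtl1 and the small classes.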

Other observations

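In floxed endothelial-like cells, 8 cells with at least 5 Dlk1 UMIs held 91.5% of the Dlk1 UMIs of the class. Rtl1, which lies in the same domain and is also expressed from the paternal copy, had 12 UMIs in 6 floxed endothelial-like cells, and 5 of these cells also held Dlk1. Control endothelial-like cells had 0 Rtl1 UMIs in 2900 cells. Without the cell with most Dlk1 in each library, an alternative added after seeing the data, Dlk1 stood at 2.13 and 16.6 CPM.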
